A study of Mus musculus with 5 samples.

Results

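The Bcl2 family of apoptosis regulators was followed on 5 expression arrays of mouse embryonic stem (ES) cells and their derivatives. Of 10 family genes listed, 9 had a probe (Pmaip1, Bbc3, Bcl2l11, Bad, Bid, Bak1, Mcl1, Bcl2 and Bcl2l1), out of 16032 genes named on the array. The array annotation used here names no probe for Bax. Bcl2 had 2 probes, and the brighter one was used. Probes were matched to the members by gene symbol.

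Akt-spheres are floating colonies that ES cells form on OP9 stromal cells in the presence of 4-hydroxytamoxifen (4OHT). One sphere array came from line 21 and one from line 42, both grown with 1 µM 4OHT. The other arrays held ES-like cells derived from line 21 spheres by transient 4OHT on embryonic fibroblasts (reverted cells), line 21 ES cells with 1 µM 4OHT and line 21 ES cells without 4OHT. All cells are male 129 derivatives of the E14tg2a line that express myr-Akt-Mer, a membrane-targeted Akt whose kinase activity depends on 4OHT. The kinase fusion is thus present in the untreated cells too, and each line is a single ES cell line. OP9 cells were depleted from the spheres by a short plating step, and no ES cell culture of line 42 was among the arrays. For the reverted cells, the labels do not say whether 4OHT was present at harvest. The reverted cells and both ES cell cultures are called the ES-type arrays below. The labels do not mention repeated cultures. A p-value here therefore reflects the spread among single arrays, part of which may be technical. Each ES-type array is a different condition, and the sphere arrays are different lines. In the test of spheres against the ES-type arrays, the spread thus also holds differences between those conditions and between the lines.

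Cells commit to apoptosis through the mitochondrion when Bax or Bak1 forms pores in its outer membrane. Bcl2, Bcl2l1 (Bcl-xL) and Mcl1 hold these effectors in check, and the BH3-only proteins, among them Pmaip1 (Noxa), Bbc3 (Puma), Bcl2l11 (Bim), Bad and Bid, act upstream by binding the protectors or the effectors. Akt signalling is known to act on this family: it phosphorylates Bad and restrains the FoxO transcription factors that activate Bcl2l11, while Pmaip1, Bbc3 and Bax are textbook p53 targets. Mcl1 is a short-lived protein required in the early mouse embryo, and Noxa binds it with preference.

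Promoter windows of RefSeq (GRCm38.p6) were matched by symbol for 9 of the 10 members, all but Pmaip1, and held 15 start sites. The 250 bases upstream of the start are shown for Mcl1, the protector that fell in spheres, and for Bcl2l11, the BH3-only gene that was lowest in ES cells with 4OHT relative to those without. The Mcl1 window lies at chr3:95658471-95658720 on the plus strand and that of Bcl2l11 at chr2:128125788-128126037, also on the plus strand. Capitals mark GC boxes (GGGCGG on either strand) and, in Bcl2l11 only, a FoxO motif (GTAAACA on either strand).
Mcl1: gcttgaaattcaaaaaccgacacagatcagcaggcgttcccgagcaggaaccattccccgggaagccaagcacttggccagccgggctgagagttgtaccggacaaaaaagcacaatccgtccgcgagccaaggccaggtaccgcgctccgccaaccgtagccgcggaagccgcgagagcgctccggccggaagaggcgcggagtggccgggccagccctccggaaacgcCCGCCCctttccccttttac
Bcl2l11: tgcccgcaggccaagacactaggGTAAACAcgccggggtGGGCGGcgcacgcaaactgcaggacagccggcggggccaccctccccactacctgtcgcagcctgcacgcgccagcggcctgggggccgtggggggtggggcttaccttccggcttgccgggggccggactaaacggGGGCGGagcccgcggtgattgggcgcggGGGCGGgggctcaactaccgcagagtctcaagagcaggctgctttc

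The FoxO motif of Bcl2l11 lay 227 bases upstream of the start, and it also occurred in 1 window of Bbc3, so that 2 of the 15 windows held it. The other Bcl2l11 window did not hold it. It was found in 3.17% of 32851 windows of the same length. GC boxes occurred in 10 of the 15 windows, Mcl1 with 1 and Bcl2l11 with 3 matches in the window shown, and in 32.7% of all windows. The STAT motif (TTCNNNGAA, in 7.02% of all windows) matched no member, the E-box (CACGTG, 6.02%) matched Bbc3 and Bax, and the half-site of the cAMP response element (TGACG, 17.8%) matched Bcl2 and Bbc3. A p53 half-site was found in the Bax window alone and in 7.13% of all windows. Both strands were searched for every motif, and a match is a description of these letters only.

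The arrays carried 22871 probes, and their deposited intensities shared a median of about 50, with a lowest listed value of 2.96 to 3.66. Of the 8 ES cell markers fixed for this report, summed intensity was 13867 and 23198 on the sphere arrays, against 90183 to 105032 on the ES-type arrays, and all 8 had a value on every array. Dppa5a, Tdgf1 and Zfp42 held most of this difference, whereas Nanog (5523 and 4003 in spheres, 3839 to 5480 on the ES-type arrays) and Utf1 (2821 and 7842, 5125 to 7534) overlapped. The 8 markers of primordial germ cells summed to 3499 and 12636 in spheres, against 1489 to 3664, with Dppa3 alone at 9198 in line 42. The 12 stromal and fibroblast markers summed to 690.8 and 440.5 in spheres, against 1197 to 1456, with Acta2 and Thy1 holding most of the difference. Other stromal markers did not follow the sum: Cxcl12 read 109.2 and 8.21 in spheres against 12.4 to 48.9, and Lum 26.3 and 20.0 against 11.9 to 24.1. The part of these shifts in the family's values was not tested. Fewer cells of a type and less RNA per cell cannot be told apart in such bulk samples.

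Spheres were first set against the 3 ES-type arrays together. Pmaip1 and Mcl1 fell in spheres, and no member rose (0 also at an unadjusted p under 0.05). Of all genes tested, 18.9% had such an unadjusted p in either direction. Pmaip1 fell 21.4-fold and Mcl1 3.80-fold, while the sphere means of Bbc3, Bcl2l11, Bid and Bcl2l1 lay within 1.23-fold of the ES-type mean. For each of these genes the sphere lines lay on opposite sides of the ES-type mean, for Bid at log2 -0.88 in line 21 and 0.29 in line 42. Fold differences were taken on the log2(intensity + 1) scale after centring of each array on its median, which understates the change of dim probes. Tested genes were those listed on all 5 arrays with an intensity at or above the 40th percentile (28.6 to 29.3) on 1 array or more. Of the 9 members, 8 passed this filter, and limma with Benjamini-Hochberg adjustment over 10589 genes called 2 of them lower at a threshold of 0.05, with a background of 1.47% of genes called lower and 0.963% called higher. One of the 2, Pmaip1, reached the filter on the ES-type arrays only, so nothing is read from this count.

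Pmaip1 had intensities of 4.72 in line 21 spheres and 12.25 in line 42 spheres, against 78.9 in reverted cells, 309.6 in ES cells with 4OHT and 259.8 in ES cells without. Both sphere arrays lay below every ES-type array, and the value of line 21 was close to the lowest value listed on any array. The log2 difference was -4.42 (SE 0.68, limma adjusted p = 0.0399), the 21st lowest of the 10589 genes. Since Pmaip1 reached the filter on the ES-type arrays only, it could enter the test only as a gene low in spheres. With a pseudocount of 16 in place of 1, the difference was -3.07 and limma's adjusted p 0.0522.

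Mcl1 had intensities of 1513 and 1117 in spheres of lines 21 and 42, against 3889 in reverted cells, 5754 in ES cells with 4OHT and 5435 in ES cells without. It was far above the filter on all 5 arrays, and the groups did not overlap. The log2 difference was -1.93 (SE 0.30, limma adjusted p = 0.0399). The call of Mcl1, like that of Pmaip1, was lost without either sphere array and without either ES cell array, at limma adjusted p-values of 0.0723 to 0.179 for Mcl1 and 0.0774 to 0.163 for Pmaip1. The direction was kept in each of these fits, with log2 differences of -2.17 to -1.66 for Mcl1 and -5.03 to -3.83 for Pmaip1 over all 5 fits that leave out 1 array.

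**Figure D1:**
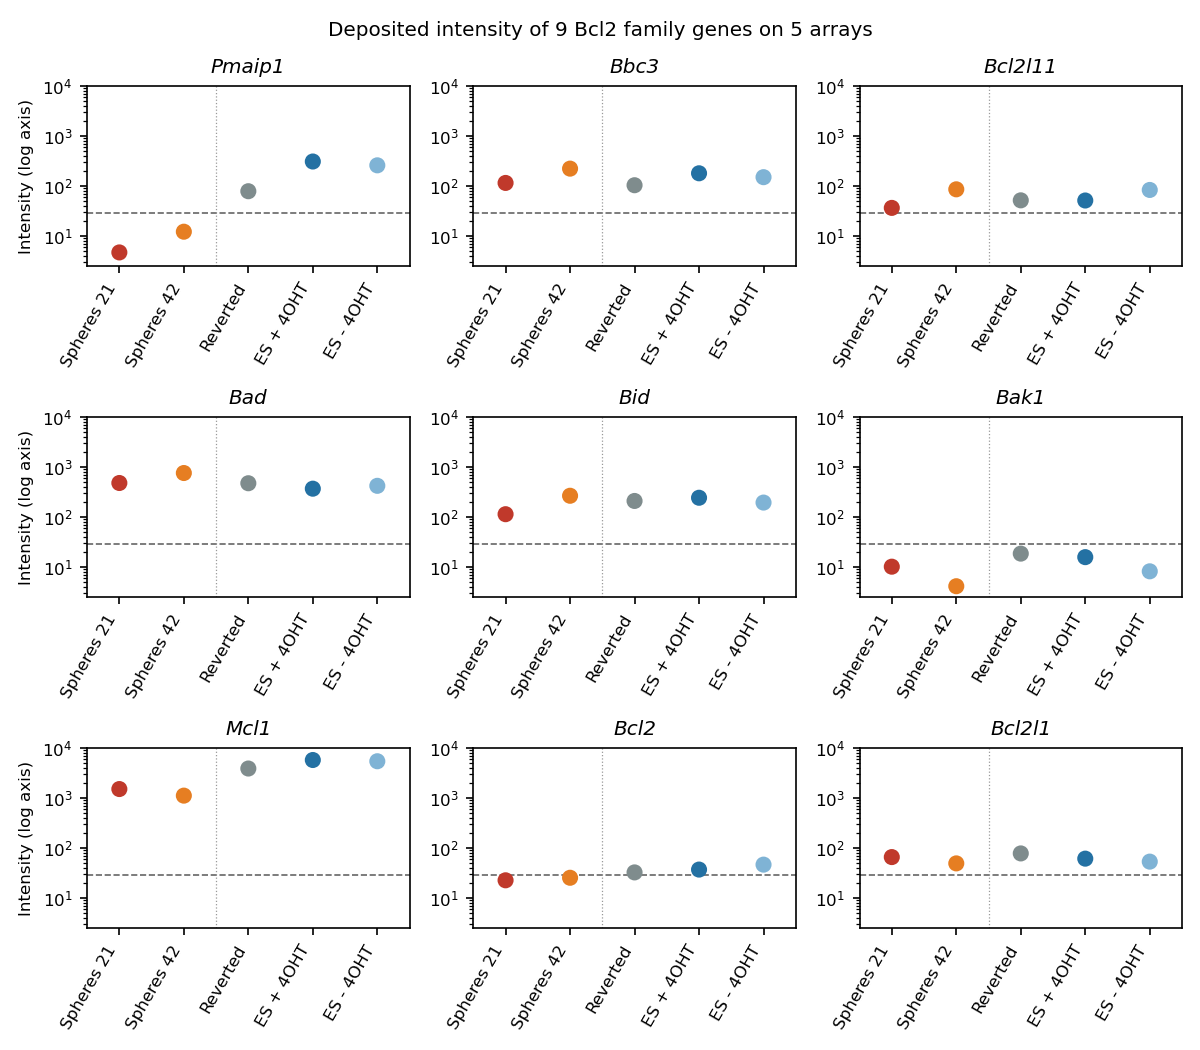
Deposited intensity (log axis, no unit) of 9 Bcl2 family genes on each of the 5 arrays, with spheres left of the dotted line, ES-type arrays right of it and the dashed line at 29.3, the highest of the arrays' 40th percentiles. Pmaip1 at 4.72 and 12.25 and Mcl1 at 1513 and 1117 in spheres lie below all their ES-type values, while Bak1 stays under the dashed line on every array.

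The other protectors did not pass the test. Bcl2, the founding member of the family, read 22.7 and 25.5 in spheres, against 32.6, 37.2 and 46.7 in reverted cells, ES cells with 4OHT and ES cells without. The groups did not overlap, as in 18.5% of the genes tested on the lower side, and the log2 difference of -0.65 (SE 0.27, limma adjusted p = 0.267) did not pass. Bcl2 reached the filter on the ES-type arrays only. The dimmer Bcl2 probe read 4.89 to 6.62 on all arrays, differed by -0.02 and did not reach the filter. Bcl2l1 had values of 66.1 and 49.4 in spheres, against 78.2, 61.5 and 53.6 on the same ES-type arrays, and the groups overlapped (log2 -0.15, SE 0.27, limma adjusted p = 0.822).

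Of the other BH3-only genes, none passed the test. Bbc3 read 115.6 and 223.2 in spheres, against 104.0 in reverted cells, 180.1 in ES cells with 4OHT and 150.6 without. Line 21 lay within the ES-type range and line 42 above it (log2 0.19, SE 0.38, limma adjusted p = 0.837). Bcl2l11 read 36.65 and 86.1 in spheres, against 51.9, 51.5 and 83.7, with line 21 below all 3 ES-type values and line 42 above, though on the centred log2 scale line 42 lay 0.06 below ES cells without 4OHT (log2 -0.10, SE 0.44, limma adjusted p = 0.929).

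Bad, which binds Bcl2 and Bcl2l1 unless phosphorylated, read 479.7 and 759.3 in spheres, against 474.4 in reverted cells, 369.3 in ES cells with 4OHT and 421.3 without. Both sphere values lay above the ES-type values, as in 19.1% of genes on the higher side, and the line 21 value exceeded that of reverted cells by a small margin (log2 0.53, SE 0.29, limma adjusted p = 0.384). Bid, which caspase-8 cleaves to link death receptors to the mitochondrion, read 114.2 and 266.7 in spheres, against 209.95, 243.3 and 194.9. Line 21 lay below and line 42 above all 3 ES-type values (log2 -0.30, SE 0.38, limma adjusted p = 0.734).

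Bak1, the member with a probe that forms pores, was dim on every array. It read 10.2 and 4.15 in spheres, against 18.6, 15.8 and 8.24 on the ES-type arrays, and did not reach the filter anywhere, so it was not tested. Over all 9 members, filter aside, 2 were higher and 7 lower in spheres, with a median log2 difference of -0.30, beside -0.01 over 13574 genes with a value on all arrays. The 7 include Bak1, and Pmaip1 and Bcl2, which were under the filter in spheres. They also include Bid, Bcl2l11 and Bcl2l1, whose sphere lines lay on opposite sides of the ES-type mean. Nothing is read from this count.

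**Figure D2:**
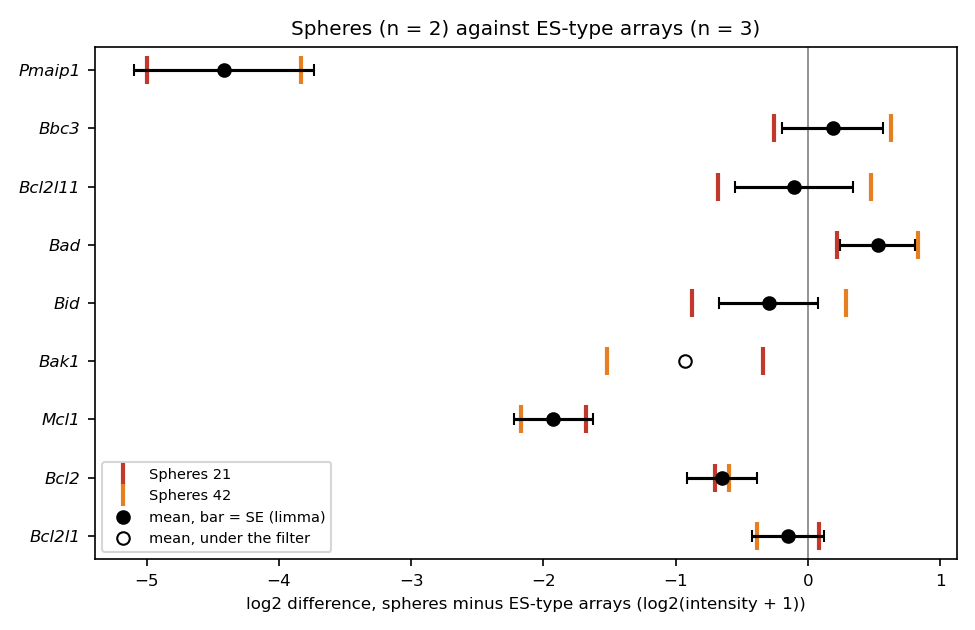
Log2 difference of each member between spheres (n = 2 arrays) and ES-type arrays (n = 3), as the mean with limma's SE (black) and for each sphere line against the ES-type mean (coloured ticks); the open circle of Bak1 marks a gene under the filter. Pmaip1 at -4.42 and Mcl1 at -1.93 are the members past limma's threshold, and the ticks of Bbc3, Bcl2l11, Bid and Bcl2l1 lie on both sides of 0. Pmaip1 reached the filter on the ES-type arrays only, so it could enter the test only as a gene low in spheres.

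**Figure D3:**
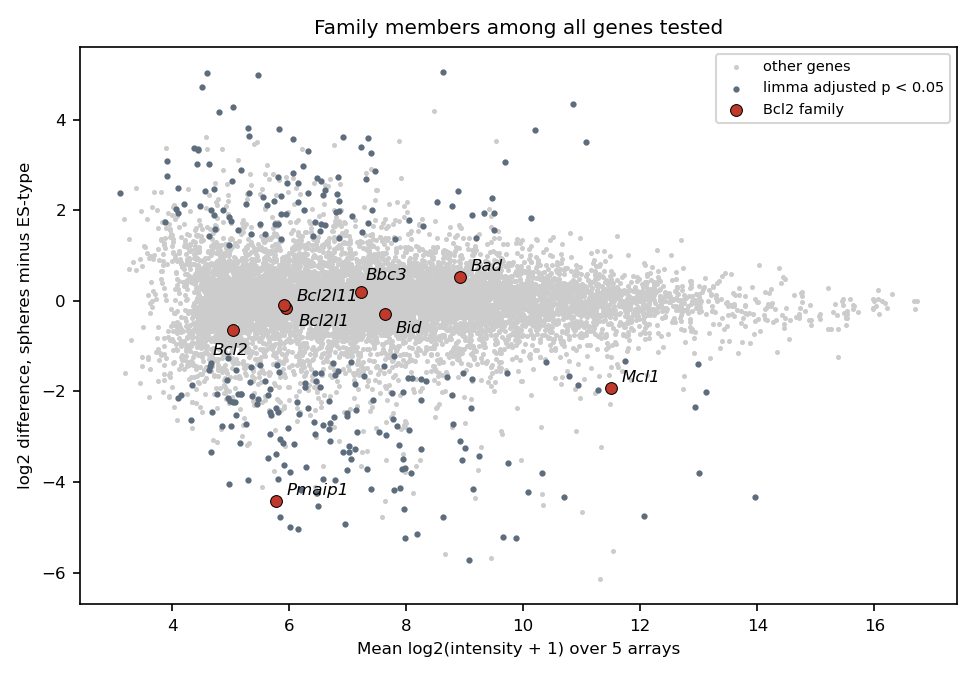
Mean log2 intensity over the 5 arrays against the log2 difference of spheres minus ES-type arrays for the 10589 genes tested, with genes at limma adjusted p under 0.05 in dark grey and the 8 tested family members in red. Mcl1 lies at the bright end with a difference of -1.93, Pmaip1 is the 21st lowest gene, and the other members lie between -0.65 and 0.53. The rank of Pmaip1 is a description only, since it reached the filter on the ES-type arrays only.

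Spheres were next compared with each line 21 ES cell culture on its own, the first of which shares 4OHT with the spheres. The fit had 1 residual degree of freedom, so the lone ES cell array was taken to vary as the sphere lines do. Pmaip1 was 34.2-fold lower than in ES cells with 4OHT and 31.6-fold lower than in those without, and Mcl1 4.24-fold and 4.40-fold lower. With a pseudocount of 16, the log2 differences of Pmaip1 were -3.70 and -3.57 in place of -5.10 and -4.98. Its sphere values lie near the lowest listed. In either comparison these were the 2 members lower by 2-fold or more in both sphere lines, where 6.82% of 10378 and 6.01% of 10262 genes were. The background on the higher side was 5.88% and 4.44%, and 0 members were higher by this rule. Pmaip1 reached the filter on the ES cell arrays only, so it could enter either comparison only as a gene low in spheres. Nothing is read from the count of 2. limma called 0 genes in both comparisons (0% of those tested), with 1209 (11.6%) and 966 (9.41%) at an unadjusted p under 0.05, and its adjusted p for Pmaip1 was 0.163 against ES cells with 4OHT and 0.205 against those without. For Mcl1 these were 0.253 and 0.312.

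Bcl2 was lower in spheres by 1.46-fold against ES cells with 4OHT (log2 -0.60 in line 21 and -0.49 in line 42) and by 2.00-fold against those without (-1.06 and -0.95, limma adjusted p = 0.576). Bad was 1.70-fold higher against ES cells with 4OHT, at log2 0.46 in line 21 and 1.07 in line 42 (limma adjusted p = 0.641). For Bcl2l11 the mean difference was 0.19 against ES cells with 4OHT and -0.64 against those without. Both comparisons use the same sphere arrays.

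The effect of 4OHT in ES cell culture was read from 1 array of line 21 ES cells with 4OHT and 1 without, which gives no replicate check. No member was 2-fold apart, where 2.4% of 9852 genes were at least 2-fold lower and 2.56% higher. The member furthest apart was Bcl2l11, at 51.5 with 4OHT against 83.7 without (1.77-fold lower, log2 -0.83). The cause of this difference was not tested. Bcl2 (log2 -0.46) and Bad (-0.33) were also lower. Bid (0.18), Bbc3 (0.12), Pmaip1 (0.12), Bcl2l1 (0.06) and Mcl1 (-0.05) differed by at most 1.13-fold, and Bak1 lay under the filter (15.8 with and 8.24 without 4OHT). Pmaip1 and Mcl1 read 309.6 and 5754 with 4OHT, against 259.8 and 5435 without. The sign of Mcl1 rests on the centring of arrays, since without centring its log2 difference was 0.08.

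In the lists of genes around the family, limited to those that reached the filter, 2 of 15 regulators, 1 of 10 caspases and apoptosome genes and 1 of 3 death receptor genes were at least 2-fold higher with 4OHT, and 1 of 8 relatives was lower. Of all 9852 genes that did, 2.56% were higher and 2.4% lower by this rule. With 1 array on each side, nothing is read from these counts. Ddit3, the stress factor CHOP, read 3073 with 4OHT against 296.9 without (9.39-fold higher). Mdm2, an inhibitor of p53, read 2985 against 1201 (2.26-fold), the death receptor gene Fas 185.3 against 74.0 (2.26-fold), and Apaf1, the scaffold of the apoptosome, 108.8 against 46.5 (2.10-fold).

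Reverted cells were compared with the line 21 spheres they came from and with line 21 ES cells without 4OHT, again with 1 array each and no replicate check. Pmaip1 and Mcl1 were higher in reverted cells than in line 21 spheres, and lower than in ES cells. The direction against spheres is no separate finding. Both arrays were part of the comparison of spheres with ES-type arrays, where the groups did not overlap for these genes. This holds for any gene without overlap there. Pmaip1 read 78.9 in reverted cells against 4.72 in line 21 spheres (13.5-fold higher, log2 3.75), and against 259.8 in ES cells without 4OHT it was 3.50-fold lower (log2 -1.81). Mcl1 read 3889 in reverted cells against 1513 in spheres (2.48-fold higher, log2 1.31) and 5435 in ES cells (lower, log2 -0.58). With a pseudocount of 16 the log2 difference of Pmaip1 from spheres was 2.15.

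Against line 21 spheres, these were the 2 members at least 2-fold higher, where 9.41% of 10034 genes were, and 0 members were 2-fold lower, where 7.58% were. Pmaip1 reached the filter here on the reverted array only, so it could enter only as a gene higher in reverted cells. Nothing is read from the count of 2. Against ES cells without 4OHT, Pmaip1 was the 1 member at least 2-fold lower, beside 6.34% of 9939 genes, and 0 members were 2-fold higher, beside 5.18%. Of the other members in reverted cells against ES cells, Bcl2l11 (log2 -0.78), Bbc3 (-0.63) and Bcl2 (-0.60) were lower by 1.52-fold to 1.72-fold. Bcl2l1 was 1.35-fold higher (0.44), and Bad (0.07) and Bid (0.01) were within 1.05-fold. Bak1, under the filter, read 18.6 in reverted cells and 8.24 in ES cells. Bid was higher in reverted cells than in line 21 spheres by 0.82 on the log2 scale. The comparisons share the reverted array.

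**Figure D4:**
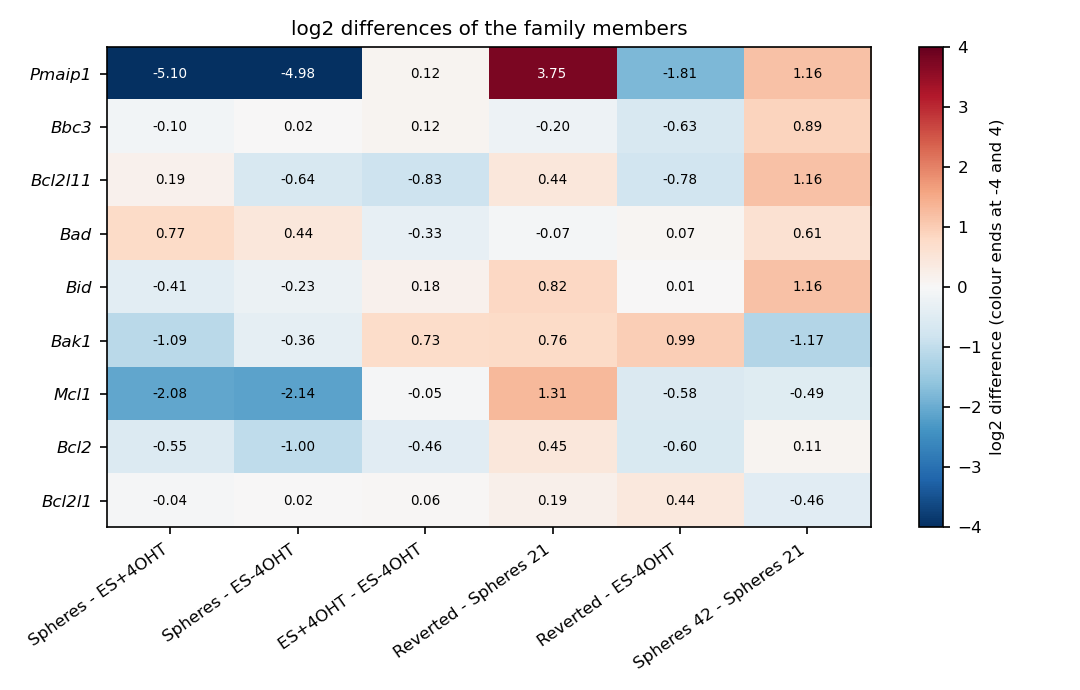
Log2 difference of each member (rows) in 6 comparisons (columns, minuend first), printed in each cell, with red for higher and blue for lower. Pmaip1 and Mcl1 are low in spheres against both ES cell cultures (-5.10 and -2.08 with 4OHT), near 0 between the ES cell cultures and higher in reverted cells than in line 21 spheres (3.75 and 1.31). The last direction was already given by the comparison of spheres with all ES-type arrays.

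The sphere lines were compared from 1 array each, with no replicate check. Bcl2l11 read 86.1 in line 42 against 36.65 in line 21 (2.23-fold) and Bid 266.7 against 114.2 (2.24-fold). These 2 were the members at least 2-fold higher in line 42, where 7.87% of 9954 genes were, and 0 were 2-fold lower, where 7.81% were. Bbc3 was 1.85-fold higher (223.2 against 115.6) and Bad 1.52-fold (759.3 against 479.7). Pmaip1, under the filter in both lines, read 12.25 in line 42 against 4.72 in line 21. Mcl1 (1.40-fold), Bcl2l1 (1.38-fold) and Bak1 (under the filter) were lower and Bcl2, also under the filter, was within 1.08-fold. Over the 9 members, filter aside, the median log2 difference was 0.61, beside 0.02 over 14196 genes with a value on both arrays. Over the 6 members that reached the filter it was 0.75, beside 0.03 over all genes that did.

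Genes around the family were taken from lists of 66 genes in 5 groups, of which 57 had a probe. Among 12 measured relatives of the family, 8 were tested between spheres and ES-type arrays and limma called 0, with 1 (Bcl2l2, higher) at an unadjusted p under 0.05. Over all genes tested, 2002 of 10589 (18.9%) lay under this unadjusted p of limma, in either direction. Bcl2l2 (Bcl-w), a further protector, was the relative 2-fold or more above ES cells without 4OHT in both sphere lines, at 140.7 and 132.45 in spheres against 60.1. Against ES cells with 4OHT, the genes that met this rule were Bok, an effector-like relative (137.3 and 108.5 against 48.9), and Bnip3l, which marks mitochondria for removal (84.3 and 63.05 against 22.6, the last under the filter). Bok was itself 2.74-fold lower in ES cells with 4OHT than in those without. Bnip3l was at least 2-fold higher in reverted cells than in ES cells without 4OHT (log2 1.13), and Bcl2l13 was lower in line 42 than in line 21 spheres (log2 -1.07).

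Of the caspases and apoptosome genes, 11 were tested and Casp6, an executioner caspase, rose in spheres. It read 511.1 and 608.15 in spheres, against 158.5 to 163.1 on the ES-type arrays (3.45-fold, log2 1.79, SE 0.22, limma adjusted p = 0.0244). The ES-type arrays lay close together and far below both sphere arrays. This call too was lost without either sphere array or either ES cell array (limma adjusted p = 0.0582 to 0.126). Casp8, the initiator that cleaves Bid, read 81.9 and 30.9 in spheres, against 45.5 in reverted cells, 14.6 in ES cells with 4OHT and 14.9 without. Its ES cell values were under the filter, so it entered the comparisons with ES cells through the arrays where it was high. It exceeded ES cells with 4OHT by 2-fold or more in both lines, was higher in reverted cells than in ES cells without 4OHT (log2 1.45) and was 2.69-fold lower in line 42 than in line 21 spheres. Casp2 was lower in line 42 than in line 21 spheres (log2 -1.22). In reverted cells relative to line 21 spheres, Casp6 (-1.70) and Casp2 (-1.07) were lower and the channel gene Vdac1 (1.19) higher. For Casp6 and Vdac1 this direction was already given, since their sphere and ES-type values did not overlap.

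Of 4 tested caspase inhibitors and 5 tested death receptor genes, limma called 0 between spheres and ES-type arrays, with 0 inhibitors and 1 receptor pathway gene (Tradd, lower) at an unadjusted p under 0.05. Birc3 (log2 1.34) and Tradd (1.18) were at least 2-fold higher in reverted cells than in line 21 spheres, where Birc3 was under the filter at 19.75. Of 17 tested regulators, 1 was higher (E2f1, log2 0.87, limma adjusted p = 0.154) and 2 lower (Pim1 and Pim3) at an unadjusted p under 0.05. Of all genes tested, 18.9% lay under this unadjusted p in either direction, so nothing is read from these unadjusted counts. limma called Pim1 lower (153.8 and 117.5 in spheres, against 355.75 to 498.9, log2 -1.70, SE 0.29, limma adjusted p = 0.0475), a survival kinase that, like Akt, phosphorylates Bad. It lost the call without any 1 of the 5 arrays (limma adjusted p = 0.0803 to 0.197). Its relative Pim3 read 544.3 and 421.1 in spheres, against 1333 to 2203 (log2 -1.76, limma adjusted p = 0.0602). Both lay 2-fold or more below either ES cell culture in both sphere lines and, at log2 1.64 for Pim1 and 1.38 for Pim3, higher in reverted cells than in line 21 spheres. The last direction was already given, since the sphere and ES-type values of both genes did not overlap.

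Ddit3 read 303.2 and 257.5 in spheres, against 3073 in ES cells with 4OHT (log2 -3.39) and 296.9 in ES cells without. The cell cycle factor E2f1 was lower in reverted cells than in line 21 spheres (log2 -1.23). Akt1 was lower in reverted cells than in ES cells without 4OHT (-1.01) and higher in line 42 than in line 21 spheres (1.44). The median log2 difference between spheres and ES-type arrays was 0.38 over the tested relatives, 0.40 over the caspases and apoptosome genes, -0.24 over the inhibitors, 0.08 over the death receptor genes and 0.11 over the regulators, beside 0.00 over all genes tested.

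**Figure D5:**
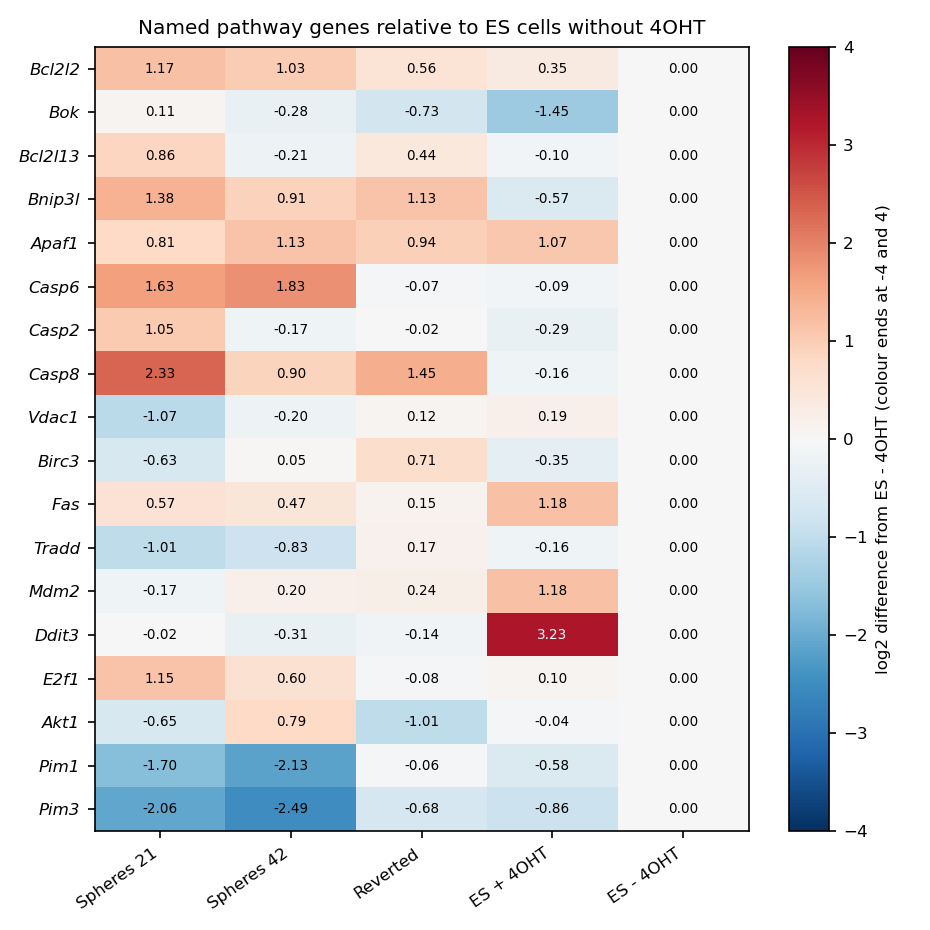
Log2 difference from ES cells without 4OHT for the 18 named pathway genes (rows) on each array (columns), printed in each cell. Casp6 is at 1.63 and 1.83 on the sphere arrays and near 0 on the others, Pim1 at -1.70 and -2.13, and Ddit3 at 3.23 in ES cells with 4OHT alone.

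For the members that spanned at least 2 log2 units over the 5 arrays, Pmaip1 (5.67) and Mcl1 (2.38), the 3 genes of most similar pattern were found by the Euclidean distance between log2 profiles centred on each gene's mean, among 10588 other genes. Closest to Pmaip1 were Myo1f (distance 0.45 log2 units), Hsd17b14 (0.95) and Dpp4 (1.01). Myo1f, an unconventional myosin, read 4.31 and 10.8 in spheres, against 80.9 in reverted cells, 376.4 in ES cells with 4OHT and 327.4 without, the same order of the 5 arrays as in Pmaip1. Closest to Mcl1 were Cep55 (0.12), a protein of the abscission step of cell division, Crct1 (0.31) and Myo18a (0.32). Cep55 read 122.15 and 89.95 in spheres, against 340.9, 506.65 and 453.7 on the ES-type arrays. With 5 arrays and this many genes, close patterns are a description only.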

How the data were processed

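The 5 arrays measured total RNA in 1 colour, after amplification to amino allyl antisense RNA and coupling to Cy5, per the labels' protocols. The values are probe intensity values as deposited by the authors on a linear scale; how the images were scanned, corrected and normalized, and why some cells are empty, is not given in the sources used. The values are all positive, 1392 to 2084 probes per array had no value, and none was filled in. Each array's deposited median was about 50, so the authors' values share a centre of unknown method.

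Probe names came from the platform annotation (16264 probes with 1 gene symbol, 0 with several, 6607 with none). Of 16087 array symbols, 12239 were current in the RefSeq table of GRCm38.p6, 3787 were updated by a single synonym and 61 kept. Of several probes per gene, the one with the highest mean intensity was used (221 genes). Values were taken to log2(value + 1), then arrays were median-centred across 18884 probes without an empty cell, which moved them by -0.06 to 0.08. Spheres against the ES-type arrays (2 against 3, 3 residual degrees of freedom) and against each ES cell array (a mean for each of 4 groups, 1 residual degree of freedom, genes with a value on all arrays) were tested with limma 3.58.1 in R 4.3.3 (lmFit, eBayes, Benjamini-Hochberg over all genes tested). Comparisons of single arrays have no test, and 2-fold differences were counted. The code of the test was run on simulated arrays with known changes and independent noise. In these data each ES-type array is a different condition, so that run does not show how reliable the calls are here. The number of arrays limits the precision. Named pathway genes are those of the fixed lists past limma's threshold, or at least 2-fold apart in both sphere lines or between single arrays, and the 3 genes closest in pattern to each member that spans at least 2 log2 units. Every member with a probe is named. The members and lists were chosen with earlier results of these data known. Alternatives were a pseudocount of 16, no filter, a filter at the 60th percentile, quantile normalization, no centring, the mean over probes, limma's intensity trend, a fold of 1.5, limma for single arrays and leaving out each array.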

Additional observations from a re-analysis of the deposited data

Results flagged for a closer look

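On the centred log2 scale, Bid was the 1 member of 9 with its sphere arrays on opposite sides of all 3 ES-type arrays; for Bcl2l11 this holds for the deposited intensities but not after centring. It was higher in line 42 than in line 21 spheres by 1.16 on the log2 scale, at intensities of 266.7 and 114.2, with 194.9 to 243.3 on the ES-type arrays. This difference between the lines rests on 1 array each and was not tested. No group held enough arrays to look for an outlying array.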

How the results depend on the processing

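The labels give no replicate numbers, and only the spheres have more than 1 array. Pairing by line was possible for line 21 alone, with 1 array of each condition, so no paired test was run. Between spheres and ES-type arrays, limma called 258 genes, and 239 to 275 under the 7 alternatives that keep all arrays. Leaving out 1 array gave 0 to 263 calls: 148 without line 21 spheres, 100 without line 42 spheres, 263 without reverted cells, 32 without ES cells with 4OHT and 0 without ES cells without 4OHT (1322 at an unadjusted p under 0.05). Family members called numbered 0 to 2 with 1 array left out and 1, Mcl1, with a pseudocount of 16. Pmaip1, Mcl1, Casp6 and Pim1 kept their direction in all 12 alternatives. Signs turned for members that were not called. With 1 array left out, log2 differences ran from -0.24 (line 42 spheres left out) to 0.64 for Bbc3, also -0.03 without reverted cells, and from -0.38 to 0.10 (line 42 spheres left out) for Bcl2l1. They ran from -0.66 to 0.48 (line 21 spheres left out) for Bcl2l11, also 0.17 without ES cells without 4OHT, and from -0.86 to 0.29 (line 21 spheres left out) for Bid. The cause was not tested.

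Genes 2-fold apart in both sphere lines numbered 958 against the ES-type arrays, 1318 against ES cells with 4OHT and 1073 against those without. With 1 array left out they numbered 914 to 1962, 1327 to 2687 and 1069 to 2230, the highest counts resting on 1 sphere line alone, and family members in the last comparison numbered 2 to 4. Without a sphere array the 4-group fit has no residual degrees of freedom, so limma gave no test there. Between ES cells with and without 4OHT, 488 genes were 2-fold apart, 311 with a pseudocount of 16, 752 with no filter, 313 with the 60th percentile filter, 1690 at 1.5-fold (1 family member) and 0 by limma with the spread of the spheres. For reverted cells against ES cells without 4OHT, the count was 1145, 2866 at 1.5-fold (4 members), and 0 genes and 0 members by limma. For reverted cells against line 21 spheres it was 1705, 3420 at 1.5-fold, with 1 member under the 60th percentile filter. Between the sphere lines it was 1560 and 3544 at 1.5-fold (4 members), with 4 members under no filter, 1 under the 60th percentile filter and 1 with a pseudocount of 16.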
